A study of Mus musculus with 23 samples.

Results

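Immediate early genes and stress response genes were followed in Schwann cells (SCs) and macrophages sorted from mouse peripheral nerve and neurofibroma. The set held 40 genes, chosen by symbol, with earlier results of these data known. It comprised 7 AP-1 transcription factors, 8 EGR, NR4A and KLF transcription factors, and 4 small MAF and C/EBP factors. It also held 9 early response and feedback genes, 8 heat shock chaperones and 4 genes of the integrated stress and unfolded protein responses. Each gene was read from the transcript cluster (the probe set of an Affymetrix Mouse Gene 2.0 ST array that covers 1 transcript unit) with the highest mean. Of the 40 genes, 38 had a transcript cluster of their own among 22180 measured genes. The clusters of Fosl1 and Gadd45a are annotated to a second gene each (Ccdc85b and E230016M11Rik), and these 2 genes were not analysed.

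The study compared cells of Nf1fl/fl;DhhCre mice, in which Cre under the Dhh promoter removes the tumour suppressor gene Nf1 in the SC lineage, with cells of Nf1fl/fl mice that carry the same floxed allele and no Cre (called wild-type here). Arrays of p75+ SCs came from neurofibromas of 7-month-old Nf1fl/fl;DhhCre mice (n = 3), from nerve of 1-month-old Nf1fl/fl;DhhCre mice before tumours form (mutant nerve, n = 3) and from nerve of 1-month-old Nf1fl/fl mice (n = 3). Arrays of F4/80+;CD11b+ macrophages came from the same 3 sources (n = 4, 5 and 3). Each 1-month-old sample pooled the nerve tissue (dorsal root ganglia, roots, plexus and sciatic nerve) of several mice. By the paper, the p75+ cells of Nf1fl/fl;DhhCre mice, those of neurofibroma included, mix recombined and unrecombined SCs. The macrophages are not targeted by the Cre. The labels give the strain as a mix of C57BL/6 and BALB/c, and they give the 1-month-old mutant tissue the name of the tumour. All tissue was dissociated with collagenase and dispase at 37 °C with shaking for 4 to 6 h before sorting. An array of undissociated nerve was not analysed here, so RNA made in the tissue and RNA made during dissociation cannot be told apart in any value below. Another 2 arrays carried a universal batch control, whose RNA source the labels do not name.

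Immediate early genes are transcribed within minutes of a stimulus without new protein synthesis, mostly through factors already bound at their promoters, such as the serum response factor and the cAMP response element binding protein. Many of them encode transcription factors (FOS and JUN family proteins pair to form AP-1), and others, such as Dusp1 and Zfp36, encode proteins that shut the response off by dephosphorylating MAP kinases or by destabilising short-lived mRNAs. Heat shock genes are driven by heat shock factor 1 through heat shock elements, and the integrated stress response acts through translation of ATF4 and its target Ddit3. In nerve, AP-1 and EGR factors are part of the SC programme of injury and myelination, and both groups of genes are also known to be induced by enzymatic dissociation of tissue.

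Promoters were read from RefSeq (mouse, GRCm38.p6) over the 250 bases before the annotated start, and 32 of the 40 genes had an entry. Egr1, Egr3, Cebpd, Ier2, Trib1, Fosl1, Hspa8 and Hsp90aa1 had none, so their promoters were not searched. The heat shock element pair was searched as GAANNTTC or TTCNNGAA, each of which is its own reverse complement. It was found for 6 of the 32 genes (18.8%), against 3932 of 27025 genes in all (14.5%). These 6 were Hspa1a, Hspa1b, Hspb1, Hspe1 and Hsph1 among the 6 chaperones with an entry, and Fosl2. The core of the cAMP response element, searched as TGACG on either strand, was found for 20 of the 32 genes (62.5%), against 5347 genes in all (19.8%). The full palindrome TGACGTCA, each copy of which also holds the core, was found for 4 (Btg2, Dusp1, Maff and Ppp1r15a), against 1.77% of all genes. The AP-1 site TGACTCA, or TGAGTCA on the other strand, was found for 2 (Ddit3 and Hspa5), against 5.16%, and the CArG box of the serum response element for 1 (Zfp36), against 1.62%. A match is only a match of letters within this window. The sequences of 3 chaperone genes that were higher in SCs in at least 1 tissue are shown as examples, with the heat shock element pair in capitals. Hspb1 also holds the pair and was called higher in SCs (criteria below) in 3 tissues. Dnajb1 was called in 2 tissues and has no match, and Hspe1 has a match and was called in none. Fos and Nr4a1 are shown because both hold the TGACG core (in capitals, on either strand) and their levels are compared in detail below. Hspa1a (chr17:34972157-34972406, minus strand) and Hspa1b (chr17:34959239-34959488, minus strand) differ at 3 of 250 bases and hold the element at the same distance, 96 bases before the start. Hsph1 (chr5:149636337-149636586, minus strand) has 2 annotated starts and a match 25 bases before the one used. Fos (chr12:85473640-85473889, plus strand) has 2 matches, the nearer 61 bases before the start, and Nr4a1 (chr15:101266596-101266845, plus strand) has 4, the nearest 35 bases before the start used. That Nr4a1 start is internal, so the window lies inside the gene span given below. The Hsph1 window also overlaps its gene, whose span ends at base 149636498.
Hspa1a: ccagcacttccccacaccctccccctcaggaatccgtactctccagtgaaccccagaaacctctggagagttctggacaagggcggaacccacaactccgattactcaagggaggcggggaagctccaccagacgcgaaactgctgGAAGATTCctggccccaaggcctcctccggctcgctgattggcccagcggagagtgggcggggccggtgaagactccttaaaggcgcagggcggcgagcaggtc
Hspa1b: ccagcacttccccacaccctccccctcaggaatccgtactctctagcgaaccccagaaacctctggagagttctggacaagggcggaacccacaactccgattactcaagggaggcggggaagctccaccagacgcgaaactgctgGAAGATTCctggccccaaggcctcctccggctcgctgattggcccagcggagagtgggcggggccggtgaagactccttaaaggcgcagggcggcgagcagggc
Hsph1: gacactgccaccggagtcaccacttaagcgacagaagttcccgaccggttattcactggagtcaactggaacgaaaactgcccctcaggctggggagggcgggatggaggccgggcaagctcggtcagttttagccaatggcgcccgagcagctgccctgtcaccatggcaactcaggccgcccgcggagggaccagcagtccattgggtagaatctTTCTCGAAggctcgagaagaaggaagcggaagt
Fos: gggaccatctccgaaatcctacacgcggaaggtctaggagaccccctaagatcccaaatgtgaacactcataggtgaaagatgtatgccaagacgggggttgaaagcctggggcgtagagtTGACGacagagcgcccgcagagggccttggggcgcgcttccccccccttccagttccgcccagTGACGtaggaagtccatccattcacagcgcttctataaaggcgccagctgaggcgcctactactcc
Nr4a1: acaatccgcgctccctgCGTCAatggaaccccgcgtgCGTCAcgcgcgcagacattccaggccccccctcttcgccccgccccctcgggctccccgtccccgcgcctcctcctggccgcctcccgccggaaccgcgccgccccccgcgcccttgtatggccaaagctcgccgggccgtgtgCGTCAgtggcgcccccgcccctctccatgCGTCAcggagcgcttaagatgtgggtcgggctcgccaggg

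Values are on the log2 scale. The arrays fell on 2 levels: all 14 arrays of 1-month-old mice and 1 universal control had array medians of 3.74 to 3.88, and all 7 neurofibroma arrays and the other control had medians of 2.92 to 3.04. The level is called the array set here. Age and array set coincide, so the neurofibroma comparisons were made through the pair of universal controls, which differed by a median of −0.63 (lower set minus higher set) with an SD of 0.49 over genes. Over the measured members this control difference had a median of −0.50 and ran from −1.51 for Fosb to 0.67 for Nr4a1. All levels of neurofibroma arrays given below, markers included, are "set-adjusted", with each gene's control difference taken off, unless they are called deposited; levels of 1-month-old arrays are as deposited. A gene was called when limma gave an adjusted p under 0.05, with Benjamini-Hochberg adjustment over all 22180 genes, and a fold change over 2. Precision is limited by how few arrays each group has, and p-values measure only the spread between these samples. Nf1 itself was at 6.94, 6.75 and 7.01 in mutant SCs, against 7.24, 7.27 and 7.16 in wild-type SCs, without overlap. In neurofibroma SCs it was at a deposited 6.66 to 6.84, in the lower array set. The universal control had Nf1 at 7.03 in that set and at 7.65 in the higher set. The deposited neurofibroma values therefore cannot be read as lower than those of 1-month-old SCs. Whether the Nf1 probes lie in the floxed exons was not checked. The sorted SCs held SC markers at mean levels of 6.78 to 7.21 in neurofibroma, 7.24 to 7.62 in mutant and 7.48 to 7.56 in wild-type nerve, and macrophage markers at 5.22 to 5.64, 4.18 to 4.64 and 4.02 to 4.95 in the same tissues. The sorted macrophages held macrophage markers at 10.01 to 10.21 (deposited 9.21 to 9.41), 9.35 to 9.62 and 9.25 to 9.59. Seminal vesicle markers stood out on 5 arrays (neurofibroma SC array 7m_4992, wild-type SC arrays 2 and 3, wild-type macrophage arrays 5 and 6), up to 9.14 on 1 of them (neurofibroma arrays are named by the age and number in their titles), and results that change without these arrays are given with their values.

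The members were high in every sorted group relative to the universal control. Of the 38 measured members, 30 (78.9%) were above the control of their own array set on all 21 sorted arrays, against 2171 of 22180 genes (9.79%). Among the 7 neurofibroma arrays alone the count was 33 members (86.8%; all genes 22.6%), and among the 14 arrays of 1-month-old mice it was 31 (81.6%; all genes 18.7%). The median member stood above the control by 2.35 in neurofibroma SCs, 2.51 in mutant SCs and 2.49 in wild-type SCs, and by 2.00, 2.07 and 2.03 in macrophages of the same tissues, where the median over all genes was 0.02 to 0.13. The 8 members that were not above the control on every array were Egr1, Egr3, Nr4a2, Klf2, Klf4, Ier2, Hspb1 and Hspe1. Egr1, a zinc finger factor induced by growth factors and injury, was above it on 3 of 7 neurofibroma arrays and on 14 of 14 arrays of 1-month-old mice. Klf4, a zinc finger factor of epithelium and vascular cells, was above it on 2 of 7 and 8 of 14 arrays, and Hspb1, a small heat shock protein, on 3 of 7 and 7 of 14. For Egr1 and Klf4 these 7-month-old arrays included none of the 4 macrophage arrays.

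**Figure D1:**
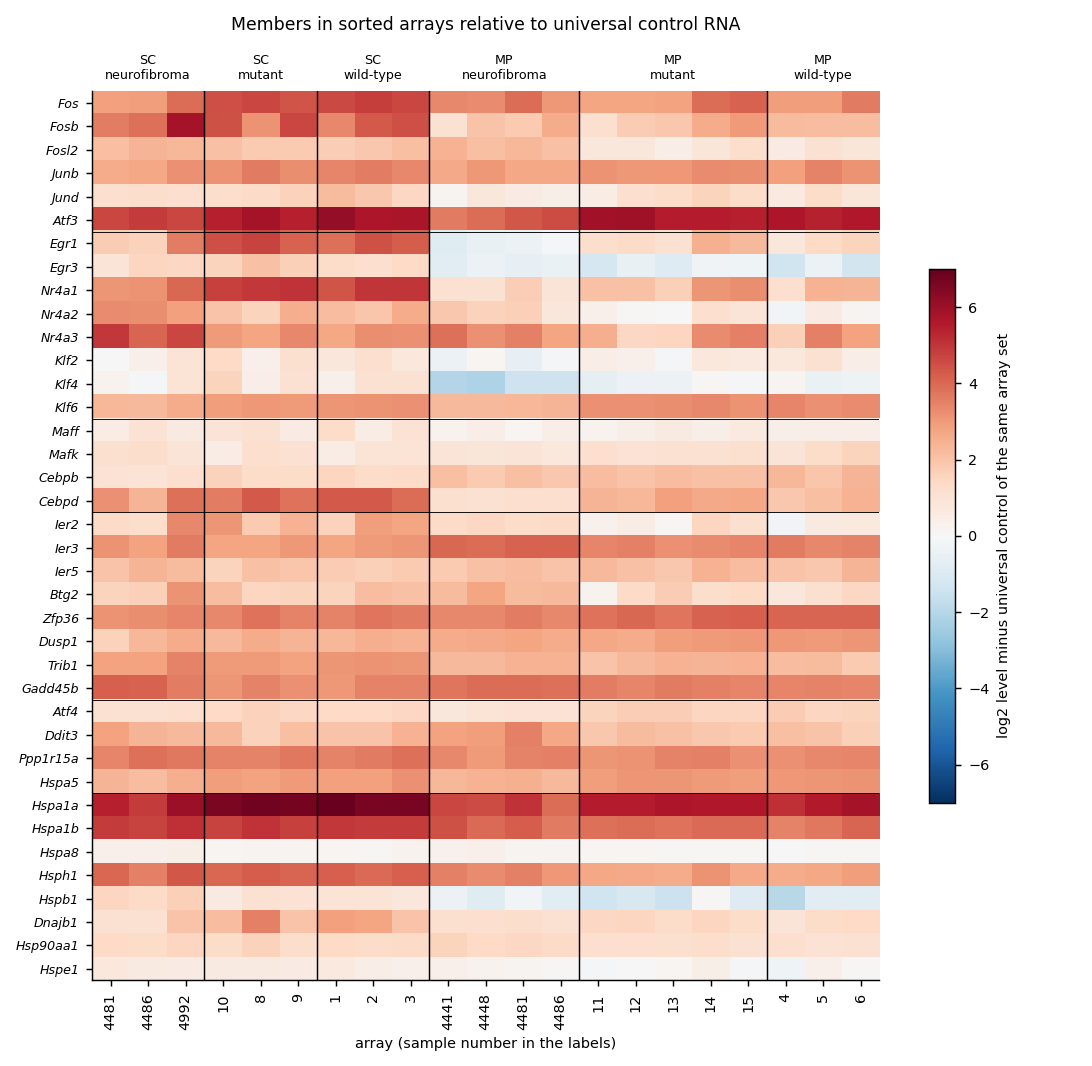
Heat map of the 38 measured members (rows, grouped by role) on the 21 sorted arrays (columns, grouped by cell type and tissue); colour gives the log2 value minus that of the universal control of the same array set. Most rows are above 0 on every array, 30 of them on all 21, and the exceptions are mainly EGR, NR4A and KLF genes in macrophages (MP).

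The clearest difference among the members was between cell types. With the array set as a term, the calls were all higher in SCs than in macrophages. Egr1 had the largest difference among the members in each tissue. Each of these 3 comparisons lies within 1 array set, so the control pair does not enter. In neurofibroma 8 of 38 members were called higher in SCs and 0 lower, where 6.46% of all genes were called higher and 5.88% lower. In mutant nerve the counts were 14 and 0 (all genes 7.22% and 5.73%), and in wild-type nerve 16 and 0 (8.87% and 4.99%). The median difference over members was 0.35, 0.53 and 0.47 in the 3 tissues, against −0.02, 0.00 and −0.06 over all genes. Every SC array was above every macrophage array for 18, 19 and 23 members (all genes 13.9%, 14% and 18.7%), and below every one for 2, 3 and 6 (15.6%, 13.5% and 19.9%). In these bulk samples, fewer cells of a type and less RNA per cell cannot be told apart. Fibroblast markers moved with the cell type, at 7.67 to 7.86, 8.15 to 8.82 and 8.32 to 8.68 in SC arrays of neurofibroma, mutant and wild-type nerve, against 4.55 to 4.71, 4.82 to 7.09 and 6.40 to 7.01 in macrophage arrays, and their part in the result was not tested. Endothelial markers stood at 6.52 to 8.10, 5.73 to 6.84 and 6.33 to 7.01 in the same SC arrays, against 4.08 to 4.23, 3.64 to 5.33 and 4.29 to 5.27 in macrophage arrays, and smooth muscle and pericyte markers at 5.34 to 5.54, 7.23 to 8.17 and 7.01 to 7.65, against 3.84 to 3.98, 4.27 to 5.59 and 4.66 to 5.97. Neither marker list overlapped between the cell types in any tissue, and their part was not tested either. Neuron markers were at 4.76 to 5.28, 4.76 to 6.10 and 4.91 to 5.76 in the same SC arrays, against 3.56 to 3.77, 3.47 to 4.82 and 3.75 to 4.51 in macrophage arrays. Mast cell markers were at 3.18 to 3.40, 3.13 to 5.38 and 3.16 to 4.11, against 3.22 to 3.34, 2.73 to 3.42 and 2.85 to 3.11. The part of these 2 lists was not tested. SC markers in macrophage arrays were at 4.38 to 4.66, 5.07 to 6.25 and 5.10 to 5.61.

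In neurofibroma Egr1 was at 7.42, 7.22 and 9.21 in SCs, against 4.76, 5.12, 5.18 and 5.55 in macrophages. In mutant nerve it was at 10.34, 9.77 and 10.13 in SCs, against 6.82, 6.97, 6.68, 8.09 and 7.87 in macrophages. In wild-type nerve it was at 9.48, 10.08 and 9.83 in SCs, against 6.38, 7.01 and 7.15 in macrophages. Every SC array was above every macrophage array of its tissue, and SC array 7m_4992 stood above the other two of its group. The differences were 2.80 ± 0.40 (SE; 6.95-fold, limma adjusted p = 1.2e-05) in neurofibroma, 2.79 ± 0.38 (adjusted p = 8.5e-06) in mutant nerve and 2.95 ± 0.42 (7.70-fold) in wild-type nerve.

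Nr4a1, an orphan nuclear receptor made as an immediate early gene, lies on chromosome 15 (101253902 to 101274795, GRCm38.p6). It was at 7.48, 7.57 and 8.46 in neurofibroma SCs, against 5.50, 5.46, 6.13 and 5.30 in neurofibroma macrophages. Its level was 9.34, 9.46 and 9.20 in mutant SCs, against 6.48, 6.45, 6.10, 7.49 and 7.67 in mutant macrophages. Wild-type SCs had 8.83, 9.41 and 9.43, against 5.60, 6.88 and 6.78 in wild-type macrophages. The groups did not overlap in any tissue, and the differences were 2.24 ± 0.36 (adjusted p = 6.1e-05), 2.50 ± 0.35 and 2.80 ± 0.39. Its relative Nr4a2 was called in the same tissues, by 1.63 ± 0.31, 1.53 ± 0.29 and 2.04 ± 0.33. The third member of the family, Nr4a3, was not called in any tissue, although it was called in neurofibroma without 1 of macrophage arrays 12, 13, 15, 4 and 5 (1.25) or 7m_s4441 (1.43).

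The other members called in all 3 tissues were Egr3, Klf4, Fosb, Cebpd and Hspb1, which makes 8 with Egr1, Nr4a1 and Nr4a2. Of 22180 genes, 974 were called higher in SCs in all 3. Egr3, a target of calcium and growth factor signals, was at 6.43 to 7.02 in neurofibroma SCs, against 4.75 to 5.11 in macrophages, a difference of 1.84 ± 0.24, and differed by 2.38 ± 0.23 and 2.32 ± 0.26 in mutant and wild-type nerve. Klf4 was higher in SCs by 2.15 ± 0.29, 1.34 ± 0.28 and 1.03 ± 0.31 (adjusted p = 0.015 in wild-type nerve). The wild-type call of Klf4 was lost without any of SC arrays 2 and 3 or macrophage arrays 5 and 6 (0.90 to 0.95), and without all arrays that carried seminal vesicle markers the difference was 0.16 (adjusted p = 0.87). Fosb, an AP-1 subunit, was at 7.72, 7.98 and 9.92 in neurofibroma SCs, against 5.19, 6.11, 5.93 and 6.71 in macrophages, a difference of 2.56 ± 0.50 (adjusted p = 5.0e-04). In mutant nerve Fosb differed by 2.02 ± 0.48 and in wild-type nerve by 1.89 ± 0.54 (adjusted p = 0.011). Without the arrays with seminal vesicle markers the wild-type difference of Fosb was 1.18 (adjusted p = 0.39). Cebpd, a C/EBP factor of the acute phase response, differed by 2.01 ± 0.25 (adjusted p = 2.2e-06), 1.34 ± 0.24 and 2.01 ± 0.27. Hspb1 was at 10.33, 10.21 and 10.53 in neurofibroma SCs, against 8.46, 7.99, 8.67 and 8.05 in macrophages, and differed by 2.07 ± 0.31, 1.88 ± 0.29 and 2.09 ± 0.33. For each of these 5 genes the SC and macrophage arrays did not overlap in any tissue.

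**Figure D2:**
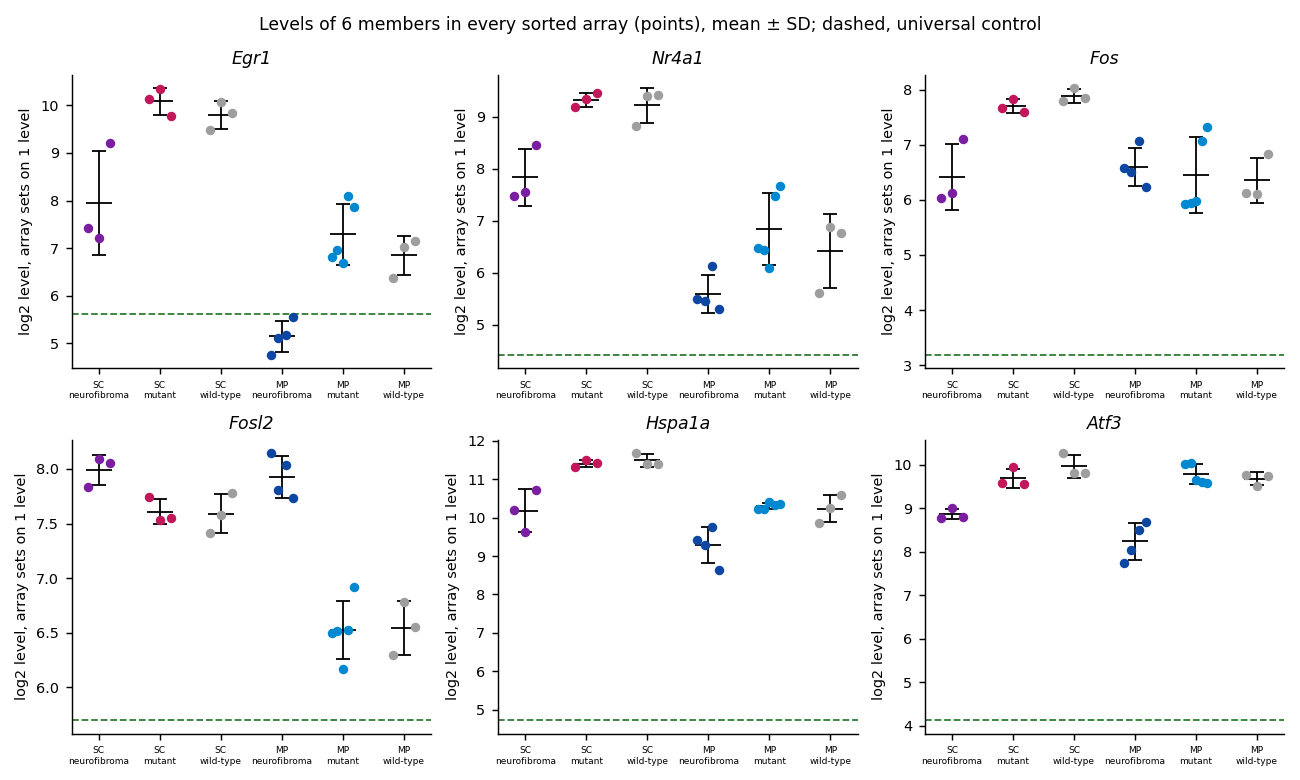
Set-adjusted log2 expression (vertical axis) of Egr1, Nr4a1, Fos, Fosl2, Hspa1a and Atf3 on each sorted array, by cell type (SC, and MP for macrophages) and tissue; points are arrays, bars the mean ± SD and the dashed line the universal control. Egr1 and Nr4a1 are higher in SCs in all 3 tissues, whereas the SC and macrophage arrays of Fos overlap in neurofibroma.

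Another 6 members were called higher in SCs in mutant and wild-type nerve and not in neurofibroma: Fos, Fosl2, Ier2, Hspa1a, Hsph1 and Dnajb1 (588 genes in all were called higher in SCs in exactly 2 tissues). Fos, the founding AP-1 subunit (chromosome 12, 85473890 to 85477274), was at 7.84, 7.60 and 7.67 in mutant SCs, against 5.93, 5.94, 5.98, 7.07 and 7.32 in mutant macrophages, a difference of 1.26 ± 0.31 (adjusted p = 0.0040). Wild-type SCs had Fos at 7.80, 8.03 and 7.84, against 6.13, 6.10 and 6.83 in wild-type macrophages, a difference of 1.54 ± 0.35 (adjusted p = 0.0020). In neurofibroma the cell types overlapped, with 6.03, 6.13 and 7.11 in SCs, against 6.57, 6.51, 7.07 and 6.24 in macrophages, and the difference was −0.18. Fosl2, which encodes the AP-1 subunit FRA2 (chromosome 5, 32136472 to 32157840), differed by 1.08 ± 0.16 (adjusted p = 1.5e-05) in mutant and 1.05 ± 0.17 in wild-type nerve, against 0.06 in neurofibroma. The mutant call of Fosl2 rested on macrophage array 13 (1.00, a fold just under 2 without it) and the wild-type call on SC array 3 (0.95 without it) and macrophage array 4 (0.92 without it). Ier2, an early response gene for a nuclear protein, was higher by 1.75 ± 0.43 (adjusted p = 0.0034) and 2.06 ± 0.48, and in neurofibroma SCs it was at 5.99 and 5.90 on 2 arrays and 8.01 on array 7m_4992, against 5.93 to 6.11 in macrophages. Without the arrays with seminal vesicle markers the wild-type difference of Fos was 1.67 (adjusted p = 0.070).

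Among the chaperones, Hspa1a, a stress-inducible HSP70 (chromosome 17, 34969359 to 34972156), was at 11.49, 11.42 and 11.30 in mutant SCs, against 10.22, 10.21, 10.40, 10.34 and 10.36 in mutant macrophages, a difference of 1.10 ± 0.22. Wild-type SCs had 11.67, 11.39 and 11.39, against 9.87, 10.26 and 10.58 in wild-type macrophages, a difference of 1.25 ± 0.25. In neurofibroma it was at 10.19, 9.62 and 10.72 in SCs, against 9.41, 9.29, 9.77 and 8.64 in macrophages; these overlap, and the difference of 0.90 passed the adjusted p but not the fold of 2. It was called there without macrophage array 7m_s4481 (1.07) or SC array 7m_4486 (1.18). Its near-identical neighbour Hspa1b (34956429 to 34959238) was called only in wild-type nerve, by 2.28-fold, with log2 differences of 0.83 in neurofibroma and 0.96 in mutant nerve past the adjusted p alone. Probes can be shared between these 2 copies, so their values are uncertain as separate genes. Hsph1, an HSP110 that recharges HSP70, differed by 1.34 ± 0.17 in mutant and 1.36 ± 0.19 in wild-type nerve, with 0.64 in neurofibroma, where SC arrays (9.89, 9.41 and 10.19) still stood above macrophage arrays (8.88 to 9.37). Dnajb1, the HSP40 partner of HSP70, was higher by 1.16 ± 0.28 (adjusted p = 0.0031) in mutant nerve, where SC array 8 was at 8.99 and the others at 7.47 and 7.67; without that array the difference was 0.68 and was not called. In wild-type nerve Dnajb1 differed by 1.37 ± 0.31. Hspa8, Hsp90aa1 and Hspe1 were not called in any tissue.

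Hspa1b and Trib1 were called in 1 tissue each. Trib1, a pseudokinase that directs C/EBP proteins to degradation, was higher in SCs by 1.06 ± 0.17 in wild-type nerve and by 0.94 without macrophage array 6, which was not called. The remaining 22 members were called higher in SCs in no tissue (19714 genes in all, those called lower in SCs included). No member was called lower. Cebpb, a C/EBP factor central to macrophage activation, was on the lower side in SCs past the adjusted p with a fold under 2, by −0.94, −0.68 and −0.83 in neurofibroma, mutant and wild-type nerve. Ier3, an early response gene that modulates cell survival, showed −0.86, −0.53 and −0.53 in the same way, and −1.09, a call, in neurofibroma without SC array 7m_4992. Zfp36 (−0.43 in mutant and −0.46 in wild-type nerve) and Dusp1 (−0.60 in wild-type nerve) also passed the adjusted p alone. Jund, a constitutive AP-1 subunit, passed it on the higher side by 0.70 in neurofibroma and 0.92 in wild-type nerve, and was called in wild-type nerve without SC array 3 (1.13) or macrophage array 5 (1.09). Hspe1, the mitochondrial co-chaperonin, stood at 0.58 and 0.47 in mutant and wild-type nerve, and Atf3, a stress-induced partner of JUN, at 0.62 in neurofibroma. Of the 4 genes of the integrated stress and unfolded protein response (Atf4, Ddit3, Ppp1r15a and Hspa5), none was called in any tissue, and their differences ran from −0.49 to 0.33. Without the 5 arrays with seminal vesicle markers, 9, 14 and 14 members were called in neurofibroma, mutant and wild-type nerve. Wild-type nerve then lost Fos, Fosb, Klf4 and Trib1 and gained Jund (1.55) and Hspe1 (1.02), and neurofibroma gained Ier3.

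**Figure D3:**
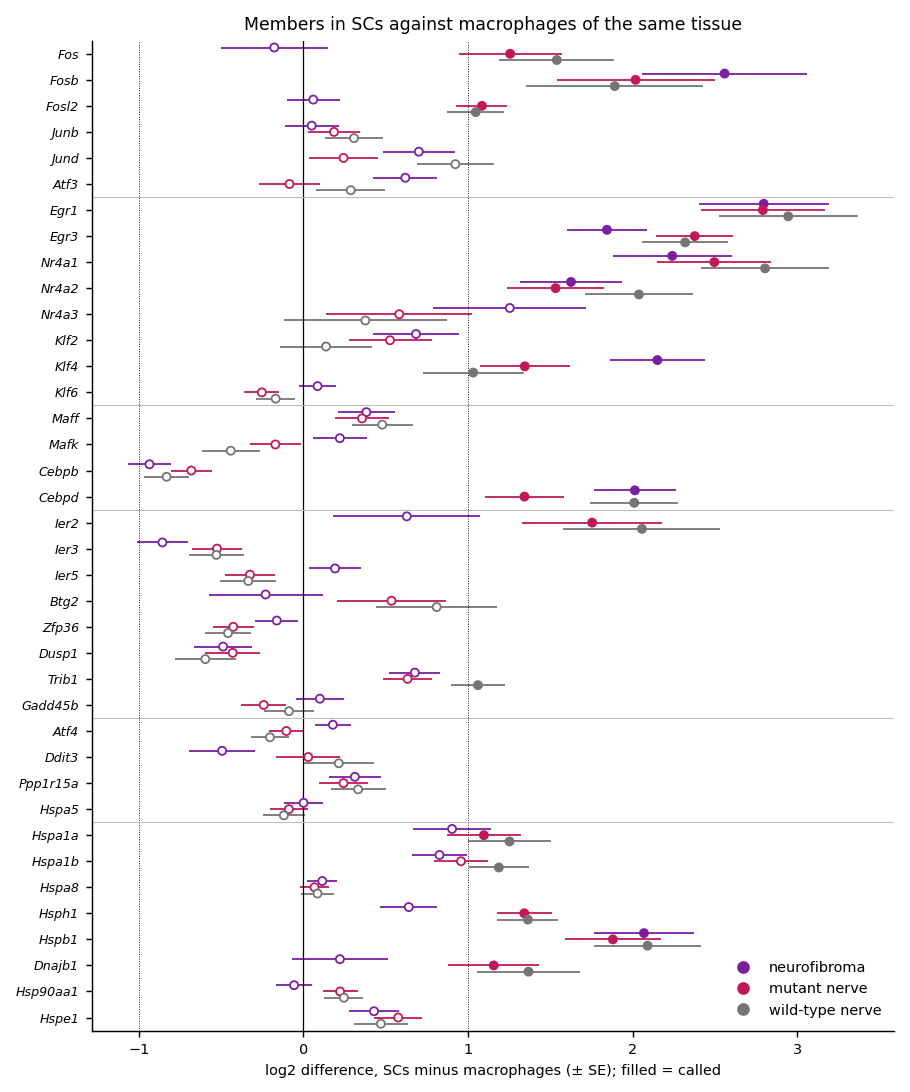
Difference between SCs and macrophages (log2, horizontal axis) for each of the 38 measured members (rows) in neurofibroma, mutant nerve and wild-type nerve; points are limma estimates, bars ± SE, filled points were called, and dotted lines mark a fold of 2. All filled points lie to the right, 8 in neurofibroma, 14 in mutant and 16 in wild-type nerve.

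The change of neurofibroma against 1-month-old nerve was set between the cell types in an interaction. A shift of the array set that is equal in both cell types cancels in it. No array came from 7-month-old nerve without tumour. Tumour and age thus cannot be told apart in this interaction or in any comparison of neurofibroma with 1-month-old nerve. Against mutant nerve 1 member was called, Fosl2, on the negative side, and 0 on the positive side (all genes 0.807% and 0.861%). Against wild-type nerve 1 was called, Fos, also negative, and 0 positive (all genes 2.2% and 0.884%). The member medians were 0.04 and −0.10, against −0.01 and 0.02 over all genes. Fosl2 was at 7.83, 8.09 and 8.05 in neurofibroma SCs, against 7.53, 7.55 and 7.74 in mutant SCs, and at 8.14, 7.81, 8.04 and 7.73 in neurofibroma macrophages, against 6.49, 6.52, 6.17, 6.52 and 6.92 in mutant macrophages. The change was thus lower in SCs than in macrophages, by −1.02 ± 0.22 (adjusted p = 0.018). Against wild-type nerve the Fosl2 difference was −0.99 ± 0.24 (adjusted p = 0.022), with a fold just under 2. The call against mutant nerve remained in 16 of 21 fits that left out 1 array (−1.12 to −0.94). It was lost without SC array 10 (−0.96), macrophage array 13 (−0.94), macrophage arrays 7m_s4441 (−0.95) or 7m_s4481 (−0.99) of neurofibroma, or SC array 7m_s4481 (−0.95, adjusted p = 0.062). The change of Fos was also lower in SCs than in macrophages, by −1.72 ± 0.48 against wild-type nerve (adjusted p = 0.047). That call remained in 9 of 21 such fits (−2.06 to −1.52, adjusted p = 0.017 to 0.113), and was lost without any of SC arrays 7m_s4481, 7m_4486, 9, 10, 1, 2 and 3 or macrophage arrays 7m_s4441, 7m_s4448, 7m_s4481, 4 and 5. Against mutant nerve Fos gave −1.43 ± 0.45 (adjusted p = 0.122), and was called without SC array 7m_4992 (−1.78) or macrophage array 15 (−1.65). Without SC array 7m_4992, 4 members were called against wild-type nerve, with Ier2 at −2.12 (adjusted p = 0.034), Btg2, an antiproliferative early gene, at −1.56 (adjusted p = 0.048) and Fosl2 at −1.02 beside Fos. Without mutant SC array 8, Dnajb1 was called against wild-type nerve (−1.15, adjusted p = 0.043). In the same interactions smooth muscle and pericyte markers had medians of −2.04 and −1.12 (3 and 1 of 8 called on the negative side) and fibroblast markers 0.76 and 1.10 (1 and 3 of 10 called on the positive side), and their part was not tested. By the batch in the array titles, the mutant nerve macrophages are all of batch 1 and the other macrophages, those of neurofibroma included, of batch 2. This batch and the mutant nerve group thus cannot be told apart in macrophages. With the batch as a term in limma, Fosl2 against mutant nerve had adjusted p = 0.077, and Fos against wild-type nerve gave −1.75 (adjusted p = 0.064).

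Against 1-month-old nerve, no member was called in neurofibroma through the control pair, and the direction of many members depended on how the 2 array sets were aligned. In SCs, 0 of 38 members were higher and 0 lower against mutant nerve (all genes 0.167% and 0.0631%), with the smallest adjusted p at 0.428 and 5 members at an unadjusted p under 0.05. Against wild-type nerve SCs gave 0 and 0 (all genes 0.18% and 0.131%; smallest adjusted p = 0.227, 6 members unadjusted). Macrophages gave 0 and 0 against mutant nerve (all genes 0.176% and 0.0496%; smallest adjusted p = 0.0914, 11 members unadjusted) and 0 and 0 against wild-type nerve (all genes 0.162% and 0.0451%; smallest adjusted p = 0.0891, 8 members unadjusted). The member medians were −0.17, −0.17, −0.11 and −0.05, against −0.04, −0.05, −0.04 and −0.06 over all genes. The comparisons with mutant and with wild-type nerve share the neurofibroma arrays. The same members had medians of −0.63, −0.70, −0.50 and −0.43 in the deposited values and of 0.33, 0.20, 0.39 and 0.55 after centring each array on its median. Centring moved the median of all genes to 0.29, 0.25, 0.23 and 0.29.

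The change of every member was set side by side under 4 alignments: the control pair, ComBat with the array set as batch, array centring and quantile normalisation. ComBat kept the groups, controls included, as covariates, so its shift rests on the same control pair. The limma fits after ComBat, centring and quantile normalisation had no array set term. Their standard errors leave out the error of aligning the sets, so their calls are not independent support. The sign of the change was the same under all 4 alignments for 18 and 19 of 38 members in SCs (against mutant and wild-type nerve) and for 23 and 25 in macrophages. In neurofibroma SCs Egr1 was below its level in mutant SCs under each, by −2.13, −2.06, −1.30 and −1.75, and was called under all but the control pair (−2.13 ± 0.85, adjusted p = 0.43). Against wild-type SCs it gave −1.84, −1.77, −1.07 and −1.44, called under the same 3 alignments. In macrophages Egr1 gave −2.13, −2.06, −1.36 and −1.52 against mutant nerve, called under the same 3, and −1.70, −1.62, −0.84 and −1.23 against wild-type nerve, where the centred value was not called. Endothelial markers were at 6.52, 7.23 and 8.10 on neurofibroma SC arrays 7m_s4481, 7m_4486 and 7m_4992, and the array with the highest of these also had the highest Egr1 of its group (9.21, against 7.42 and 7.22). Smooth muscle and pericyte markers were at 5.34 to 5.54 in neurofibroma SCs, against 7.23 to 8.17 in mutant SCs and 7.01 to 7.65 in wild-type SCs, and fibroblast markers at 7.67 to 7.86, against 8.15 to 8.82 and 8.32 to 8.68. The part of these markers in the result was not tested. Fosl2 was higher in neurofibroma macrophages than in mutant macrophages, by 1.40, 1.41, 1.83 and 1.41, and than in wild-type macrophages, by 1.39, 1.39, 1.89 and 1.25. It was called under the last 3 alignments in both, and through the control pair it had adjusted p = 0.091 (1.40 ± 0.33) and 0.11 (1.39 ± 0.34). Without macrophage array 15 the comparison with mutant nerve was called through the control pair as well (1.50, adjusted p = 0.043). In neurofibroma macrophages fibroblast markers were at 4.55 to 4.71, against 4.82 to 7.09 and 6.40 to 7.01 in mutant and wild-type macrophages, and their part in these values was not tested.

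Other AP-1 factors and their partners gave values without a call through the control pair. Fos in neurofibroma SCs gave −1.28, −1.23, −0.50 and −0.95 against mutant SCs under the 4 alignments in the same order, and −1.47, −1.42, −0.74 and −1.07 against wild-type SCs. In macrophages Fos gave 0.15, 0.20, 0.87 and 0.51 against mutant nerve. Atf3 was at 7.75, 8.04, 8.49 and 8.67 in neurofibroma macrophages, against 9.59 to 10.03 in mutant and 9.50 to 9.77 in wild-type macrophages. These groups did not overlap, with −1.54 ± 0.40 (adjusted p = 0.13) and −1.44 ± 0.41 (adjusted p = 0.19), but the centred values were only −0.61 and −0.42. Klf6, an injury-induced zinc finger factor, gave −0.99 ± 0.24 (adjusted p = 0.089) in neurofibroma macrophages against wild-type macrophages and −0.74 ± 0.24 (adjusted p = 0.23) in SCs. After centring, its values over the 4 comparisons lay between −0.34 and 0.06. Nr4a3 was higher in neurofibroma SCs than in mutant SCs under each alignment (1.54, 1.58, 1.64 and 1.20), without a call through the control pair.

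For several members the sign or the size depended on the alignment. Nr4a1 in neurofibroma SCs against mutant SCs gave −1.50 and −1.40 through the control pair and ComBat, but 0.12 after centring and −0.31 after quantile normalisation. Cebpd in macrophages against mutant nerve gave −1.44, −1.36, 0.07 and −0.14. Btg2, at −0.24 in the deposited values of macrophages against mutant nerve, gave 1.16, 1.16, 0.66 and 0.28 under the 4 alignments, and Ddit3, which encodes the apoptosis-linked factor CHOP, gave −0.06 in the deposited values and 1.02, 1.01, 0.83 and 0.46. The neighbours Hspa1a and Hspa1b parted only through the control arrays. In the deposited values their differences between neurofibroma and mutant SCs were −0.67 and −0.58, close to each other. The control pair shifted by 0.56 for Hspa1a and by −0.63 for Hspa1b, so that the set-adjusted differences were −1.22 and 0.04.

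**Figure D4:**
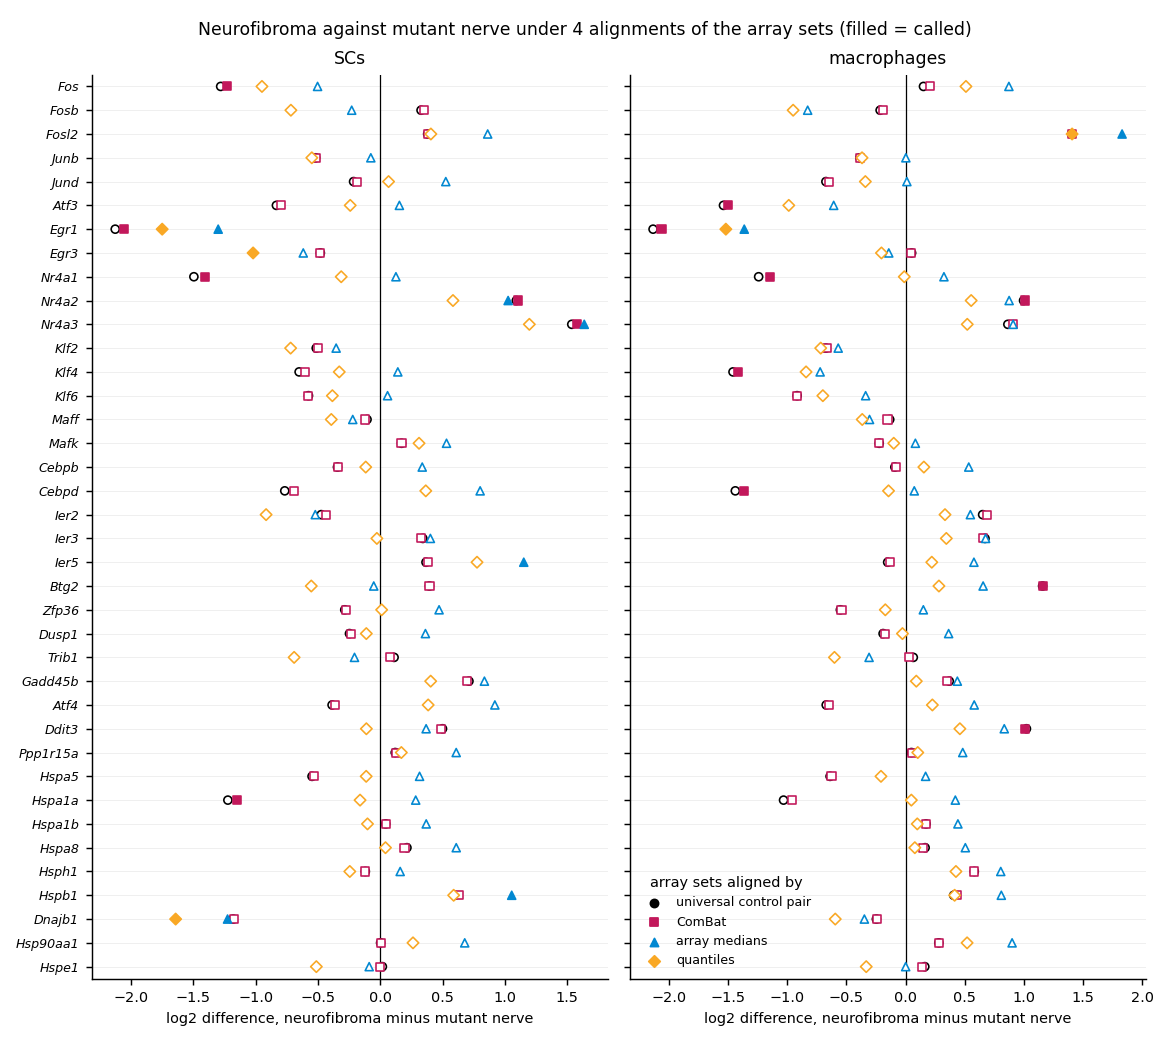
Difference of neurofibroma against mutant nerve (log2, horizontal axis) for each of the 38 measured members (rows) in SCs (left) and macrophages (right) under 4 alignments of the array sets, given by the marker shape; filled markers were called. The markers of a gene spread over more than 1 log2 unit for members such as Nr4a1 and Cebpd, while Egr1 is to the left and Fosl2 in macrophages to the right under each.

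In nerve of 1-month-old mice the mutant and wild-type groups lay in 1 array set. By the array titles, however, all mutant macrophage arrays are of batch 1 and all wild-type macrophage arrays of batch 2. Batch and group cannot be told apart in that macrophage comparison. No member was called in SCs (0 higher and 0 lower; all genes 0% and 0.00451%; smallest adjusted p = 0.613) or in macrophages (0 and 0; all genes 0% and 0%; smallest adjusted p = 0.478), and 0 members had an unadjusted p under 0.05 in either. The member medians were −0.01 and 0.04, against −0.02 and −0.02 over all genes. The 95% interval of the difference lay within ±1 log2 unit for 33 of 38 members in SCs and for 33 in macrophages, and within ±0.5 for 19 and 19. In SCs the values ran from −0.45 for Jund (−0.94 to 0.04) to 0.47 for Egr3 (−0.07 to 1.02). Fos gave −0.19 in SCs (−0.92 to 0.54) and 0.10 in macrophages (−0.56 to 0.75). In macrophages the values ran from −0.35 for Klf2, a zinc finger factor of quiescent cells, to 0.44 for Egr1 (−0.35 to 1.23). For the neurofibroma comparisons only 12, 12, 12 and 8 members had an interval within ±1. Groups without any overlap numbered 1 higher and 2 lower in SCs (all genes 4.86% and 5.46%), and 0 and 0 in macrophages (3.1% and 3.85%).

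The members differed widely in how much they varied between arrays of a group. The EGR, NR4A and KLF factors had a median residual SD of 0.43, at the 91.5th percentile of all genes, whereas the 38 members together had 0.228, close to the 0.240 of all genes. Fosb (0.74) and Nr4a3 (0.69) varied most, followed by Ier2 (0.66), Egr1 (0.58), Nr4a1 (0.53), Btg2 (0.50) and Fos (0.47). The constitutive chaperone Hspa8 varied least (0.052), and Atf4 (0.099), Hsp90aa1 (0.107), Klf6 (0.109) and the endoplasmic reticulum chaperone Hspa5 (0.124) also stayed close between arrays. Hspa8 lay between 12.24 and 12.47 on the 7 neurofibroma arrays and between 12.05 and 12.28 on the 14 others.

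Many members deviated in the same direction on single arrays. The same deviations were not computed over all genes, so a shift of the members was not told apart from a wider shift of an array. Neurofibroma SC array 7m_4992 had 30 of 38 members above its group mean, by 0.31 on average, against 11 and 11 members on arrays 7m_s4481 and 7m_4486 (−0.15 and −0.17). Its Fos was 7.11, its Fosb 9.92 and its Btg2 9.64, against 6.03 and 6.13, 7.72 and 7.98, and 8.03 and 8.14 on the other 2 arrays. This array also carried seminal vesicle markers and the highest endothelial markers of its group. Among mutant macrophages, arrays 14 and 15 had 28 and 24 members above the group mean (0.24 and 0.17), against 11, 12 and 16 on arrays 11, 12 and 13 (−0.18, −0.10 and −0.13). Fos was at 7.07 and 7.32 on arrays 14 and 15, against 5.93, 5.94 and 5.98 on the others, and Nr4a1 at 7.49 and 7.67, against 6.48, 6.45 and 6.10. The EGR, NR4A and KLF list stood at 0.52 and 0.45 on arrays 14 and 15 and at −0.46 on array 13. On the 5 mutant macrophage arrays, 11 to 15 in order, endothelial markers were at 4.22, 3.82, 3.64, 5.33 and 5.29, fibroblast markers at 6.48, 6.48, 4.82, 7.09 and 6.98, and SC markers at 5.56, 5.83, 5.07, 6.25 and 5.98. All 3 marker lists were highest on arrays 14 and 15 and lowest on array 13, and their part in the members' levels was not tested. Mutant SC array 8 had all 8 chaperones above its group mean (0.22). Without mutant macrophage arrays 14 and 15, 9, 15 and 16 members were called between SCs and macrophages, and the Fos interaction against mutant nerve was called (−1.93, adjusted p = 0.0064).

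**Figure D5:**
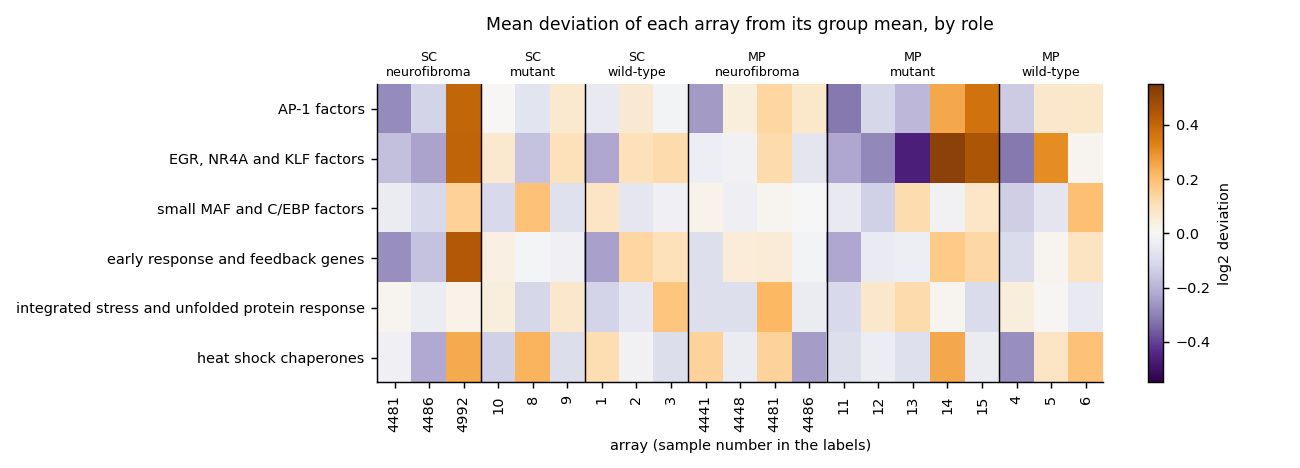
Mean deviation (log2, colour) of the members of each of the 6 role lists (rows) from the mean of their group, for the 21 sorted arrays (columns, grouped by cell type and tissue). Macrophages are marked MP. Neurofibroma SC array 7m_4992 and mutant macrophage arrays 14 and 15 are positive for the EGR, NR4A and KLF factors (0.41, 0.52 and 0.45) and for the AP-1 factors.

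Further genes of the same responses were counted from 3 lists: 34 other immediate early genes, 17 other heat shock genes and 19 other genes of the integrated stress and unfolded protein responses with a transcript cluster. In the 6 comparisons within a cell type none of these was called. Between SCs and macrophages, 11 of the other immediate early genes were higher and 4 lower in neurofibroma, 10 and 3 in mutant nerve, and 9 and 3 in wild-type nerve. Of all genes, 6.46% were higher and 5.88% lower in neurofibroma, 7.22% and 5.73% in mutant nerve, and 8.87% and 4.99% in wild-type nerve. Ccn1, a matrix protein gene induced by growth factors and YAP, was higher in SCs by 4.56 ± 0.53 in neurofibroma (adjusted p = 8.6e-07), and its relative Ccn2 by 3.14 ± 0.33 in mutant nerve and 2.61 ± 0.37 in wild-type nerve. Myc differed by 2.87 ± 0.20 (adjusted p = 6.4e-10) and Egr2, the myelination factor KROX20, by 2.50 ± 0.26 in neurofibroma. Jun, the central AP-1 subunit and a driver of SC repair, was higher by 2.10 ± 0.21 in wild-type nerve. Ptgs2, the inducible prostaglandin synthase, was lower in SCs of mutant nerve, by −2.02 ± 0.34. The fibroblast markers given above were also higher in every SC group, and Ccn1 and Ccn2 are expressed by fibroblasts; the part of such cells was not tested.

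The other heat shock genes were called higher in SCs for 6, 6 and 4 of 17 genes in neurofibroma, mutant and wild-type nerve, and lower for 0 in each (all genes 6.46%, 7.22% and 8.87% higher, and 5.88%, 5.73% and 4.99% lower). The small heat shock proteins Cryab and Hspb8 led them, by 2.80 ± 0.39 and 2.71 ± 0.34 in neurofibroma, 2.15 ± 0.37 and 2.23 ± 0.33 in mutant nerve and 2.49 ± 0.41 and 2.37 ± 0.36 in wild-type nerve. Hspa2, an HSP70 family member, differed by 1.73 ± 0.22, 1.32 ± 0.21 and 1.87 ± 0.23. The other genes of the integrated stress and unfolded protein responses went both ways, with 4 higher and 1 lower in neurofibroma, 1 and 4 in mutant nerve, and 2 and 4 in wild-type nerve, of 19 genes, beside the same shares over all genes. Asns, asparagine synthetase and a target of ATF4, was higher in neurofibroma SCs by 2.70 ± 0.21. The lipoprotein receptor gene Vldlr was higher in SCs by 2.50 ± 0.27, 2.60 ± 0.25 and 3.00 ± 0.28 in the 3 tissues. The endoplasmic reticulum genes Creld2 and Hyou1 were lower in mutant SCs, by −1.65 ± 0.14 and −1.43 ± 0.15, and Sdf2l1 was lower in wild-type SCs, by −1.37 ± 0.24.

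The interaction between cell type and tissue was called for 3 of the other immediate early genes on the positive side and 1 on the negative side against mutant nerve, and for 2 and 2 against wild-type nerve, of 34 genes. Over all genes 0.861% and 0.807% were called on the positive and negative side against mutant nerve, and 0.884% and 2.2% against wild-type nerve. Plk2, a stress-responsive polo-like kinase, gave 1.47 ± 0.28 (adjusted p = 0.0068) and 1.75 ± 0.29 (adjusted p = 0.0022), so that its change in neurofibroma was more positive in SCs than in macrophages. Egr2 gave 1.67 ± 0.36 (adjusted p = 0.018) and 1.58 ± 0.39 (adjusted p = 0.024). The small GTPase gene Rhob gave 1.21 ± 0.16 against mutant nerve (adjusted p = 4.5e-04), and Socs3, a feedback inhibitor of cytokine receptors, −1.53 ± 0.42 against wild-type nerve (adjusted p = 0.043). Asns was the 1 gene of its list with a call in both, by 2.22 ± 0.30 (adjusted p = 4.5e-04) and 2.44 ± 0.31 (adjusted p = 3.2e-04). Among the 3 lists and the 38 members, Fos, Fosl2, Socs3 and Crem, a cAMP-responsive repressor, thus had calls on the negative side.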

How the data were processed

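RNA of sorted cells was hybridised to Affymetrix Mouse Gene 2.0 ST arrays. The authors deposited log2 values of 41345 transcript clusters, made by robust multi-array averaging in Affymetrix Expression Console 1.3.1.187 (mm10, per the labels). The methods name a ComBat correction, which is not visible in the deposited values: array medians still fell on 2 levels. Of the clusters, 23521 were annotated to 1 gene, 1820 to several and 16004 to none; the cluster with the highest mean was kept for each of 22180 genes, of which 21994 matched RefSeq (GRCm38.p6).

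From these values limma 3.58.1 (R 4.3.3) was fitted over all 23 arrays with 7 groups and the array set as a term (15 residual degrees of freedom), and 11 contrasts were tested with Benjamini-Hochberg adjustment over all genes. The universal control pair is the only link between array sets. Samples were grouped by the labels; nothing else was used to assign them. Sample numbers 4481 and 4486 occur in both cell types of neurofibroma, and the block on them is given with the alternatives. The fit was tested on simulated data. Promoters were searched with Python 3.11.15.

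All 40 members may be named; of other genes of the same responses, up to 3 per list with the largest difference among those called, and any others by list counts. Crem was named after its values were seen. The members, lists and rules were chosen with earlier results of these data known. Fosl1 and Gadd45a were left out because their clusters carry a second gene. The alternatives without the arrays with seminal vesicle markers and without mutant macrophage arrays 14 and 15 were chosen after seeing the data.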

Additional observations from a re-analysis of the deposited data

Results flagged for a closer look

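The change of neurofibroma against 1-month-old nerve differed between SCs and macrophages, by a test of the difference itself, for 2 members: Fosl2 against mutant nerve (−1.02 ± 0.22, limma adjusted p = 0.018) and Fos against wild-type nerve (−1.72 ± 0.48, limma adjusted p = 0.047). Neither call remained in every fit that left out 1 array. Among 76 tests in the macrophage groups of 4 and 5 arrays, 4 had a highest array whose gap to the next, as a share of the group's range, was above Dixon's critical value for 4 or 5 arrays, and chance alone flags about 1 in 20 groups. Neurofibroma macrophage array 7m_s4448 stood apart for Junb (gap 0.9 of the range; deposited 7.75, next 7.42) and for Btg2 (0.906; 7.85, next 7.32). Neurofibroma macrophage array 7m_s4481 stood apart for Zfp36 (0.874; 11.12, next 10.93), and mutant macrophage array 14 for Hsph1 (0.807; 8.99, next 8.57).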

How the results depend on the processing

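Across 35 settings, 21 of which left out 1 array each, no member called with the array set as a term changed sign in the comparison of its call. The alignment of the array sets mattered most, and only the fit through the control pair carried the error of that pair. For neurofibroma SCs against mutant and wild-type nerve and neurofibroma macrophages against the same, in that order, 0 members were called through the control pair, 6 (2 higher, 4 lower), 6 (1, 5), 9 (4, 5) and 9 (5, 4) under ComBat, 6 (4, 2), 5 (3, 2), 2 (1, 1) and 5 (5, 0) after centring, and 3 (0, 3), 3 (0, 3), 2 (1, 1) and 4 (1, 3) after quantile normalisation. Over all genes these comparisons had 51 (37 higher, 14 lower), 69 (40, 29), 50 (39, 11) and 46 (36, 10) calls through the control pair, 1252 (566, 686), 1434 (533, 901), 1103 (594, 509) and 1386 (746, 640) under ComBat, 1572 (1084, 488), 1453 (778, 675), 1085 (779, 306) and 1774 (1480, 294) after centring, and 991 (348, 643), 1154 (362, 792), 778 (342, 436) and 943 (418, 525) after quantile normalisation. The interaction against mutant nerve, with 1 member called, had 0 after centring, 0 with the label batch as a term and 2 without mutant macrophage arrays 14 and 15. The interaction against wild-type nerve, with 1, had 2 after centring, 0 after quantile normalisation, 0 with the label batch as a term, 2 within label batch 2, 2 without the fold criterion and 0 without the arrays with seminal vesicle markers. SCs against macrophages of neurofibroma, with 8, had 16 without the fold criterion (14 higher, 2 lower). After centring, SCs against macrophages of neurofibroma, mutant and wild-type nerve had 9 (8 higher, 1 lower), 12 and 16 calls. The lower call was Cebpb (−1.01, limma adjusted p = 7.6e-06). After quantile normalisation the same comparisons had 9, 14 and 14 calls, all higher. Leaving out 1 array at a time gave 0 to 0 calls in both SC comparisons of neurofibroma and 0 to 1 and 0 to 0 in the macrophage ones, 0 to 0 for mutant against wild-type nerve in each cell type, 8 to 9, 13 to 15 and 14 to 16 for SCs against macrophages of neurofibroma, mutant and wild-type nerve, and 0 to 2 and 0 to 4 for the interactions.

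With the sample number as a replicate block (duplicateCorrelation, 0.098), SCs against macrophages of neurofibroma had 9 calls in place of 8, with Nr4a3 added (1.26, adjusted p = 0.048), and no other call changed; with 2 shared numbers, whether the numbers pair the arrays could not be checked further. Single-gene results were followed for the 93 pairs of member and comparison that were called in at least 1 setting with the fold criterion. Of these 93, 62 kept direction and call under ComBat, where 31 gained a call, 64 after centring and 77 after quantile normalisation. The pairs were chosen by their calls, so these shares are not rates over all members. Centring turned the sign of 6 results that were not called through the control pair: Nr4a1 in neurofibroma SCs against mutant (0.12) and wild-type nerve (0.19) and in macrophages against mutant nerve (0.32), Hspa1a in neurofibroma SCs against mutant (0.28) and wild-type nerve (0.15), and Cebpd in neurofibroma macrophages against mutant nerve (0.074). Through the control pair these were −1.50, −1.39, −1.24, −1.22, −1.31 and −1.44. Age and array set coincide, so what the neurofibroma comparisons show rests on 1 control array in each set.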
